A study of Mus musculus with 9 samples.

Results

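Transcripts of the 10 dual-specificity MAP kinase phosphatases were measured in hair follicle bulge stem cells of mice under dietary restriction (DR) and of mice fed ad libitum (AL). The members were taken by gene symbol, Dusp1, Dusp2, Dusp4, Dusp5, Dusp6, Dusp7, Dusp8, Dusp9, Dusp10 and Dusp16, and all 10 were found among the 35006 gene symbols of the count tables. The 4 DR libraries came from C57BL/6J mice given each day 70% of what AL mice of like weight and sex ate, and the 5 AL libraries from C57BL/6J mice with food at all times. Mice of both groups were housed singly, and bulge cells were sorted by flow cytometry on CD34 and alpha6 integrin from pools of 3 mice. The labels give no age, sex, hair cycle stage or irradiation state, name 2 animal facilities without saying which mice came from which, and do not say whether each library had its own pool. The p-values below therefore measure the spread between these libraries, which may be partly technical.

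MAP kinases carry signals from growth factor and stress receptors to the nucleus, through the ERK, JNK and p38 branches, and are switched on when a MAP kinase kinase phosphorylates a threonine and a tyrosine in their activation loop. The dual-specificity phosphatases of this family remove both phosphates and so switch the kinases off. Many of their genes are themselves induced by the pathway, which makes them feedback brakes. In skin, ERK signalling downstream of growth factors is known to drive keratinocyte proliferation. The family falls into nuclear, inducible enzymes (Dusp1, Dusp2, Dusp4, Dusp5), cytoplasmic enzymes that prefer ERK (Dusp6, Dusp7, Dusp9) and enzymes that prefer JNK and p38 (Dusp8, Dusp10, Dusp16).

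All 10 coding sequences held a single match to the catalytic signature searched for, a histidine and a cysteine followed after a fixed gap by an arginine. The 24 coding bases of that signature are shown because all members hold it and they bear on how well short reads tell members apart. Only the members were searched, so whether the signature sets them apart from other phosphatases was not tested. The bases were read 5′ to 3′ from GENCODE transcripts (GRCm38, a later build than the authors' mm9). Capitals mark the codons of the catalytic cysteine and arginine.
Dusp1: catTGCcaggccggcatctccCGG
Dusp2: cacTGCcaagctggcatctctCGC
Dusp4: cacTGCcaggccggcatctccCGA
Dusp5: cacTGCgaagctggggtttccCGG
Dusp6: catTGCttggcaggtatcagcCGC
Dusp7: cacTGCctagcaggcatcagcCGT
Dusp9: cacTGTctggcaggggtcagcCGC
Dusp8: cacTGTctggctggcatctctCGC
Dusp10: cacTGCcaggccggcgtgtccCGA
Dusp16: cacTGCttagctgggatctctCGC
Even in this conserved stretch Dusp4 matched Dusp1 at 22 of 24 bases, Dusp10 at 20 and Dusp9 at only 15. Across the whole transcripts no window of 51 bases, the read length, was shared between any 2 members, so reads of this length could be assigned within the family. Dusp5 shared 547 exon bases, and 20.5% of its windows, with a gene annotated on the opposite strand (AC137853.2). Dusp8 shared 0.54% of its windows with other genes and the other 8 members shared none; the library kit does not mark strand, so Dusp5 reads from the shared stretch cannot be told apart.

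Libraries held 26119459 to 33559312 gene counts. Bulge markers were abundant, with Krt15 at 8498 ± 555 CPM (reads scaled to a common library total) in DR and 12360 ± 1812 CPM in AL (SD, n = 4 and 5), and all 14 markers of the bulge list had counts in every library. The bulge markers summed to 24230 to 26730 CPM in DR and 34340 to 50190 CPM in AL. Of the 14, 8 fell and 2 rose, 71.4% in all, against 40.7% of all genes tested. Among the 8 was the sort marker Cd34 (log2 fold change -1.18, edgeR adjusted p = 0.016). Its edgeR adjusted p was 0.052 without DR replicate 3, and 0.086 without the 3 libraries richest in endothelial markers, named below. The other sort marker, Itga6 (alpha6 integrin), did not pass (-0.12, edgeR adjusted p = 0.34). Krt15 was another of the 8 (-0.54, adjusted p = 0.024), a call that was lost without AL replicate 1 (0.051) or DR replicate 1, 3 or 4 (0.062 to 0.069). The 9 fibroblast markers summed to 192 to 282 CPM in DR and 346 to 398 CPM in AL, with 3 lower and 1 higher of 6 tested (66.7%). Most of that sum was Fbln1 alone, at 194 ± 50.3 CPM in DR and 254 ± 38.2 CPM in AL (SD, n = 4 and 5). Fbln1 did not pass (edgeR adjusted p = 0.093). Of 6 tested melanocyte markers 3 were lower (50%), beside the same 40.7% of all genes. Endothelial marker genes summed to 44.6 and 30.4 CPM in DR replicates 1 and 2 and to 24.3 CPM in AL replicate 1, against 2.30 to 10.4 CPM in the other 6 libraries. The 9 immune markers summed highest in the same libraries, at 57.9 and 45.5 CPM in DR replicates 1 and 2 and 44.9 CPM in AL replicate 1, against 2.64 to 14.9 CPM in the others. The 15 genes listed for G2 and M phase summed to 17.1 to 47.2 CPM in DR and 118 to 862 CPM in AL, lowest of AL in replicate 5. The part of these marker differences in the results below was not tested beyond leaving libraries out. In such bulk samples fewer cells of a type and less RNA per cell cannot be told apart.

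Of the 10 phosphatases, Dusp7 and Dusp16 rose in DR and no member fell; the other 8 did not pass edgeR's quasi-likelihood test at an adjusted p of 0.05. The 2 calls are 20% of the members, against 40.7% of all 15447 genes tested (19.0% higher and 21.7% lower in DR). The median log2 fold change of the 10 members was -0.09, beside -0.02 over all genes; it was 0.14 without AL replicate 4 and 0.04 without DR replicate 2. The diets did not overlap in 1 member, Dusp16, against 32.9% of all genes. At an unadjusted p under 0.05, 3 members were higher and 1 lower, against 23.4% and 26.1% of all genes. The DESeq2 Wald test and limma-voom each called the same 2 higher and Dusp9 lower; of all genes DESeq2 called 21.2% higher and 22.1% lower, and limma-voom 19.0% and 21.4%. All 10 members passed the filter on low counts.

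**Figure D1:**
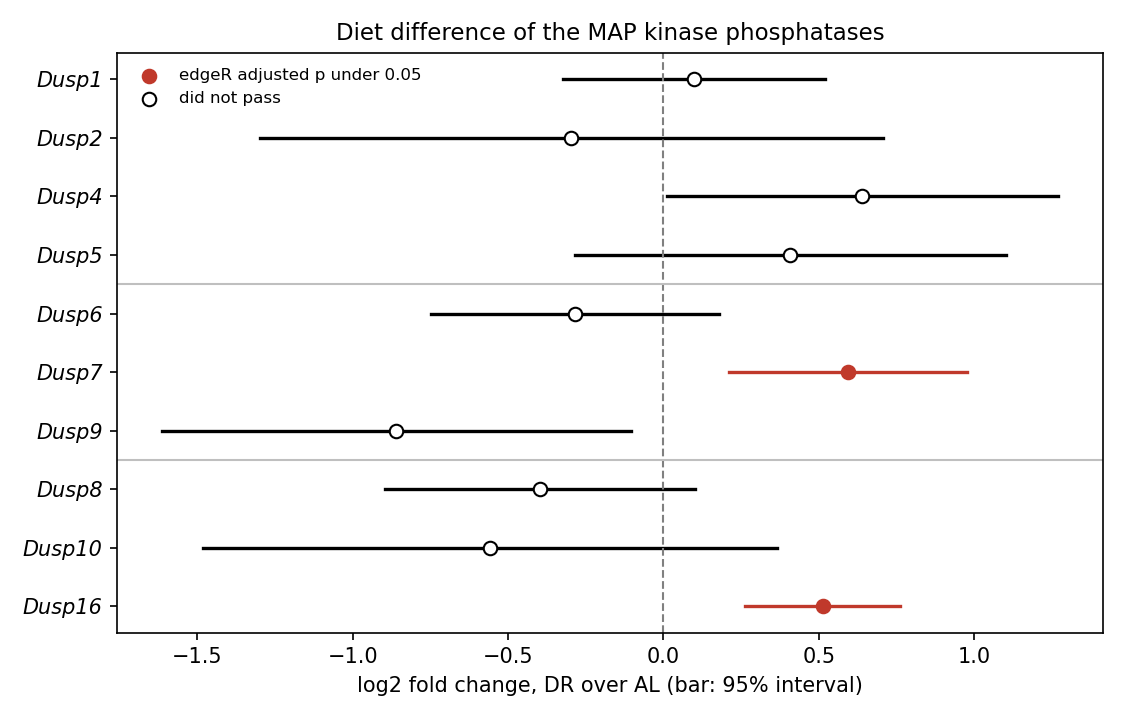
Log2 fold change, DR over AL, of each member with its 95% interval, grouped from top to bottom as nuclear inducible, cytoplasmic and JNK- or p38-preferring enzymes. Filled points, Dusp7 at 0.59 and Dusp16 at 0.51, passed the edgeR test; the other 8 are open.

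Dusp1, the immediate early phosphatase of the nucleus that acts on p38, JNK and ERK and is a textbook target of the glucocorticoid receptor, was by far the most abundant member. It stood at 3142, 2528, 3743 and 3311 CPM in DR replicates 1 to 4 and at 2349, 2314, 2959, 3226 and 4004 CPM in AL replicates 1 to 5. Both the lowest and the highest library were AL, so the diets overlapped throughout. The mean was 3181 ± 504 CPM in DR and 2970 ± 699 CPM in AL (SD, n = 4 and 5; log2 fold change 0.10, 95% interval -0.32 to 0.52, edgeR adjusted p = 0.71). The interval takes in differences of either sign. Dusp1 made up 78.4% to 85.1% of the summed CPM of the 10 members in DR and 77.3% to 85.9% in AL.

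The other nuclear members were far lower and varied more. Dusp5, an ERK-specific nuclear phosphatase, had 81.5, 27.9, 47.5 and 62.6 CPM in DR and 26.7, 30.5, 35.8, 66.1 and 47.5 CPM in AL. Its libraries spanned 2.93-fold in DR and 2.47-fold in AL, more than the diets differed (edgeR log2 fold change 0.41, SE 0.32, adjusted p = 0.33). It was 0.16 without DR replicate 1 and 0.64 without AL replicate 4. Dusp4, which acts on ERK and JNK in the nucleus, had 13.8, 5.93, 8.91 and 10.1 CPM in DR and 4.77, 4.68, 6.34, 10.3 and 5.01 CPM in AL. AL replicate 4 was the only AL library above 6.34 CPM, and DR replicate 2 the only DR library below that level. With all libraries the log2 fold change of 0.64 did not pass (edgeR adjusted p = 0.096, SE 0.29), but it did without AL replicate 4 (0.89, adjusted p = 0.016) or without DR replicate 2 (0.82, adjusted p = 0.042). Over all alternatives its adjusted p ran from 0.016 to 0.27.

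Dusp2, best known from activated lymphocytes, was among the lowest members, with 39 to 105 reads per library in DR and 31 to 147 in AL. It had 3.78, 1.20, 1.47 and 1.45 CPM in DR and 1.81, 2.04, 2.01, 5.05 and 1.17 CPM in AL. One library in each diet, DR replicate 1 and AL replicate 4, stood apart from the rest. Its log2 fold change was -0.30 (95% interval -1.30 to 0.71, edgeR adjusted p = 0.63) and turned to 0.16 without AL replicate 4.

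**Figure D2:**
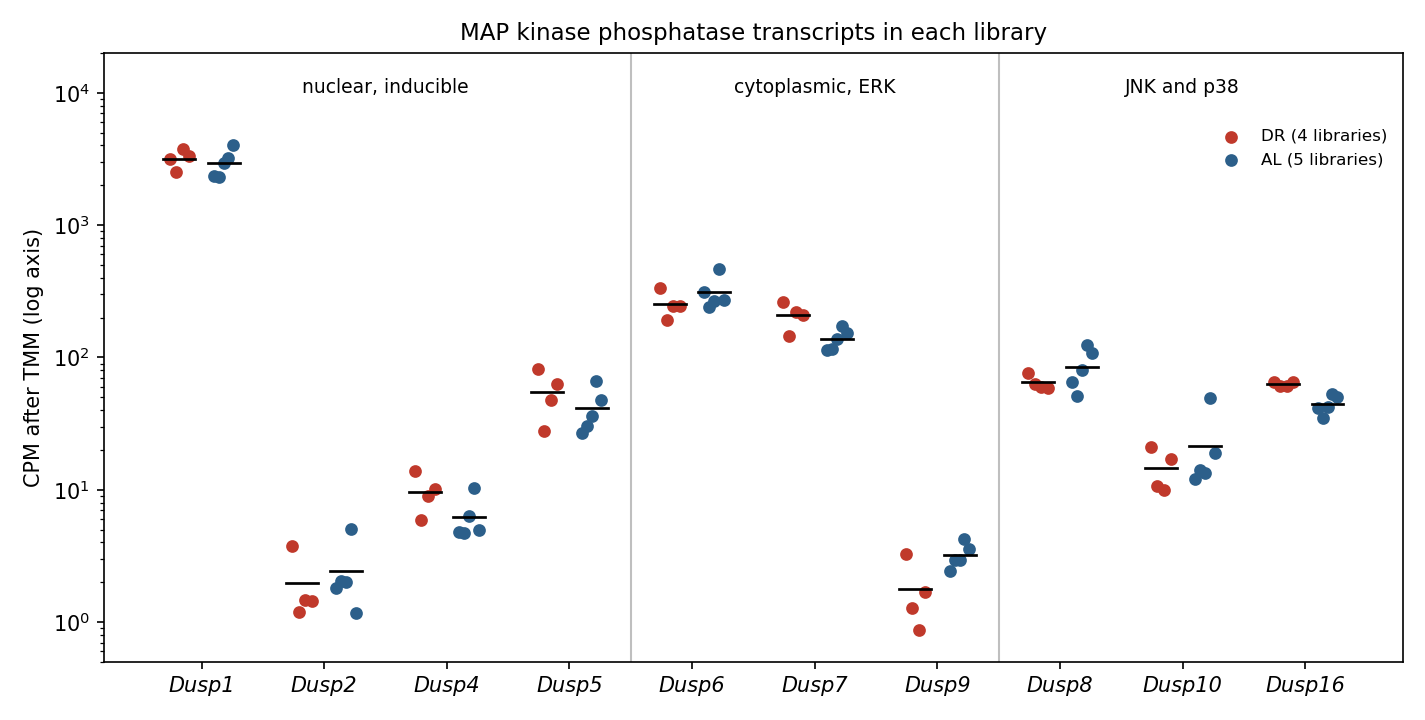
CPM after TMM scaling on a log axis for each member, with 1 point per library (DR red on the left, AL blue on the right of each gene) and a black bar at the mean. Dusp1 lies at 2314 CPM or more in all 9 libraries, and only for Dusp16 are the DR points, 60.4 to 65.6 CPM, all on one side of the AL points, 35.2 to 52.7 CPM.

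Of the cytoplasmic, ERK-preferring enzymes, Dusp7 rose. It had 263, 146, 221 and 209 CPM in DR and 114, 115, 139, 174 and 154 CPM in AL. DR replicates 1, 3 and 4 lay above every AL library, and DR replicate 2 lay within the AL range. The mean was 209.9 ± 48.4 CPM in DR and 139 ± 25.6 CPM in AL (SD, n = 4 and 5), a log2 fold change of 0.59 with an SE of 0.17 (edgeR adjusted p = 0.019). Without DR replicate 1 the call was lost (0.47, adjusted p = 0.056); over the other alternatives the adjusted p ran from 0.0044 to 0.046.

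Dusp6, the cytoplasmic phosphatase that shuts off ERK after fibroblast growth factor signalling, was the second most abundant member and did not pass. It had 337, 191, 247 and 247 CPM in DR and 311, 239, 269, 466 and 271 CPM in AL. The single high value was AL replicate 4, and the remaining AL libraries lay inside the DR range. The log2 fold change was -0.28 (95% interval -0.75 to 0.18, edgeR adjusted p = 0.30). Without AL replicate 4 it was -0.10, and without DR replicate 1 it was -0.45.

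Dusp9, the third cytoplasmic enzyme, was also low, with 23 to 91 reads per library in DR and 67 to 123 in AL. It had 3.27, 1.29, 0.864 and 1.68 CPM in DR and 2.42, 2.94, 2.95, 4.22 and 3.58 CPM in AL. DR replicates 2 to 4 lay below every AL library and DR replicate 1 lay within the AL range. The log2 fold change of -0.86 (SE 0.34) just missed the threshold (edgeR adjusted p = 0.066). It passed without DR replicate 1 (-1.33, adjusted p = 0.0043), without the 3 libraries richest in endothelial markers (-1.41, adjusted p = 0.019), under limma-voom (adjusted p = 0.029) and under DESeq2 (0.040). Over all alternatives its adjusted p ran from 0.0043 to 0.16.

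Of the enzymes that prefer JNK and p38, Dusp16, which shuttles between nucleus and cytoplasm, was the member whose diets did not overlap. It had 65.6, 60.9, 60.4 and 65.5 CPM in DR and 41.3, 35.2, 42.03, 52.7 and 49.9 CPM in AL. Every DR library lay above every AL library, and the DR libraries had a coefficient of variation of 4.46%, against 16% in AL. The mean was 63.1 ± 2.82 CPM in DR and 44.2 ± 7.07 CPM in AL (SD, n = 4 and 5), a log2 fold change of 0.51 with an SE of 0.11 (edgeR adjusted p = 0.0045). Leaving out any single library kept the call (0.45 to 0.58, adjusted p 0.0024 to 0.015). Without the 3 libraries richest in endothelial and immune markers the log2 fold change was 0.49 and no longer passed (adjusted p = 0.060), while Dusp7 still did (0.57, adjusted p = 0.036). That fit kept only DR replicates 3 and 4 and AL replicates 2 to 5. It called 29.4% of all genes, against 40.7% with all libraries. The part of the smaller number of libraries in the lost call was not tested.

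Dusp8, a JNK-preferring phosphatase, had 76.8, 63.2, 59.9 and 59.3 CPM in DR and 65.2, 51.0, 79.8, 123 and 108 CPM in AL. The DR libraries sat together inside a much wider AL range. The log2 fold change was -0.40 (SE 0.23, edgeR adjusted p = 0.18), and it passed narrowly without AL replicate 2 (-0.52, adjusted p = 0.049). Dusp10, which acts on JNK and p38, had 20.9, 10.6, 10.03 and 17.0 CPM in DR and 12.1, 14.0, 13.4, 49.3 and 18.9 CPM in AL. Apart from AL replicate 4, every AL library lay inside the DR range. Its log2 fold change of -0.56 (95% interval -1.48 to 0.37, edgeR adjusted p = 0.31) came to 0.002 without that library.

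Within each diet the same few libraries were high or low for most members. AL replicate 4 was the highest AL library for 9 of 10 members, with Dusp1 as the exception, and DR replicate 1 was the highest DR library for 9 of 10, again all but Dusp1. DR replicate 2 was the lowest DR library for 6 members, and AL replicates 1 and 2 were the lowest of AL for 4 and 5. The same count was made for 20 immediate early genes (Fos, Jun, Egr1 and others, induced within minutes by MAP kinase signalling and by tissue handling). Of AL, replicate 4 was highest for 14 of them and replicate 5 for 6, where replicate 5 was highest for 1 member; AL replicate 1 was lowest for 13. Of DR, replicate 1 was highest for 10 and replicate 3 for 9, although replicate 3 was highest for 1 member and lowest for 3. DR replicate 2 was lowest of DR for all 20. How alike the orders are was not tested. Their mean log2 CPM was 10.68, 9.74, 10.59 and 10.49 in DR and 9.95, 10.04, 10.19, 10.81 and 10.67 in AL, so the diets overlapped. Fos alone stood at 15280 to 25810 CPM in DR and 14160 to 23920 CPM in AL. The part of this variation in the results for single members was not tested.

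**Figure D3:**
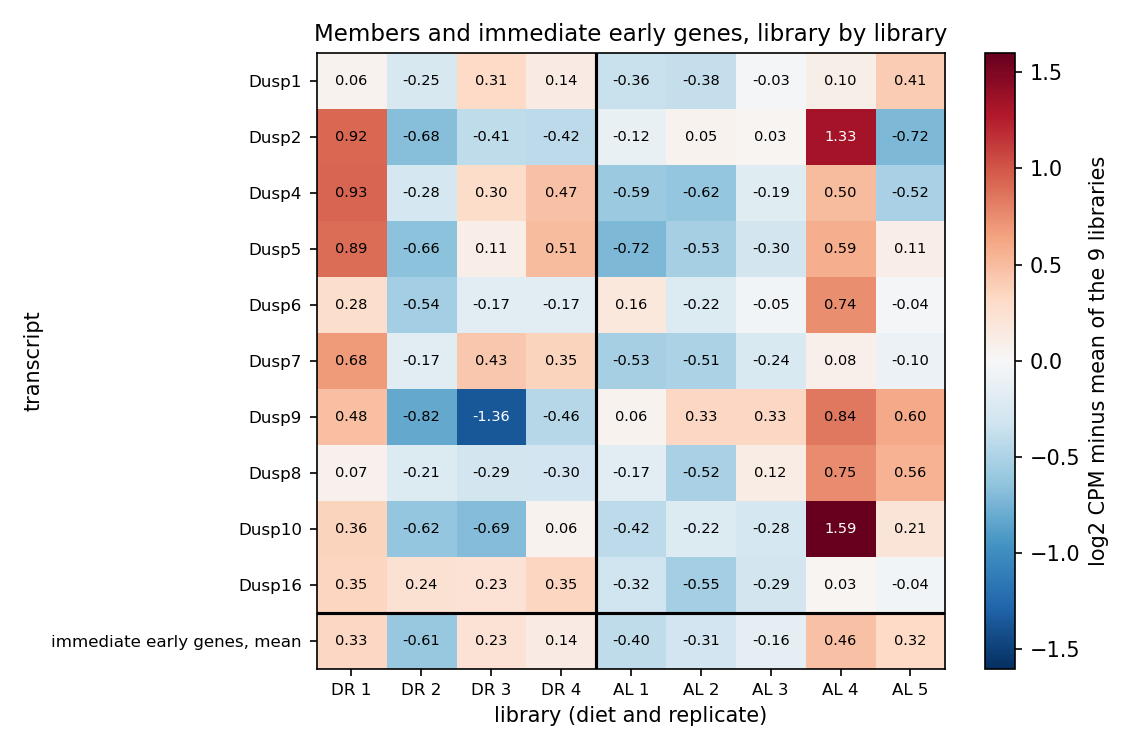
Log2 CPM of each member, and the mean of 20 immediate early genes, minus the mean of the 9 libraries, with the 4 DR libraries left of the line and the 5 AL libraries right of it. Columns AL 4 and DR 1 are above zero for all members, DR 2 is below zero for 9 of 10 members, and Dusp16 is above zero in all 4 DR libraries.

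Regulatory letters were looked up in the 250 bases before the RefSeq start site (GRCm38.p6), given for 8 of the 10 members. The motifs searched on both strands were the cyclic AMP response element TGACGTCA, its core TGACG (which overlaps it), the AP-1 site TGANTCA, the forkhead site TGTTTAC and, by name, the glucocorticoid receptor element and the serum response element. The windows of 5 members are shown, those of Dusp1, Dusp5 and Dusp8 because they held motifs of MAP kinase-responsive factors, and those of Dusp7 and Dusp16 because these 2 genes rose. They run 5′ to 3′ on the gene's strand, stop before any annotated exon, and capitals mark motif matches.
Dusp1, chr17:26508520-26508722, minus strand: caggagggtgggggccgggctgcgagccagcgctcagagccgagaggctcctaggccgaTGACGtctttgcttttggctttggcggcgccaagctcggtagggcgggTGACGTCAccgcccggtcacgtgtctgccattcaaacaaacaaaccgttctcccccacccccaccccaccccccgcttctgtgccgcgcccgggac
Dusp5, chr19:53528895-53529108, plus strand: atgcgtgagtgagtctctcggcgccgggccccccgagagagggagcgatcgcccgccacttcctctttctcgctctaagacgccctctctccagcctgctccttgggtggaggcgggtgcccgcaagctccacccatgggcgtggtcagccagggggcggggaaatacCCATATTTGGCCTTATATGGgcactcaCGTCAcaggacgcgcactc
Dusp8, chr7:142095285-142095534, minus strand: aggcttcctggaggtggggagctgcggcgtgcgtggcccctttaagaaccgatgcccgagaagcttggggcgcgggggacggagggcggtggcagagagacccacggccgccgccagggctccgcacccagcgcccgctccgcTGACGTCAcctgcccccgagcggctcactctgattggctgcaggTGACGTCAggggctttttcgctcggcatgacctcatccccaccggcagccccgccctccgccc
Dusp7, chr9:106368382-106368631, plus strand: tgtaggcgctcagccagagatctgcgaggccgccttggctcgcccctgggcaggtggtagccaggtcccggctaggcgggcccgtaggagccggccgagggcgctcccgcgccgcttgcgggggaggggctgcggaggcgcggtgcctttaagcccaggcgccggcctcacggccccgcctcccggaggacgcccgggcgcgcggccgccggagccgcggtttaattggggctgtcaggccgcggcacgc
Dusp16, chr6:134792629-134792878, minus strand: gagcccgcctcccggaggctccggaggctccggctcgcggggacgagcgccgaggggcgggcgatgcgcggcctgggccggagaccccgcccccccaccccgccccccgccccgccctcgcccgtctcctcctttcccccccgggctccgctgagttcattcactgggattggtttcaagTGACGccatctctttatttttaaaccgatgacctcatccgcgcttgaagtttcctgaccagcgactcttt
Dusp1 held the full TGACGTCA from 143 to 136 bases before its start and a further core at 191 to 187, and Dusp8 held it at 107 to 100 and again at 63 to 56 bases. The full element was in 1.55% of the 32851 promoter windows. Dusp5 held adjoining serum response elements at 82 to 73 and at 72 to 63 bases, a motif found in 1.47% of windows, and the core on the opposite strand (CGTCA as printed) at 55 to 51 bases. Dusp16 held the core TGACG alone, at 70 to 66 bases, as did 17.8% of all windows, and Dusp7 held none of the letters searched. No member's window held the glucocorticoid receptor element (0.387% of windows), the AP-1 site (6.75%) or the forkhead site (3.17%). These matches are letters in a short window and say nothing about which factor binds.

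Read per kilobase of merged exon length (GENCODE gene models, GRCm38), Dusp1, Dusp6 and Dusp7 led in both diets. In DR Dusp1 averaged 961 ± 152 CPM per kilobase, Dusp6 81.5 ± 19.3, Dusp7 62.5 ± 14.4, Dusp5 22.2 ± 9.20 and Dusp8 13.3 ± 1.68 (SD, n = 4). In AL the same genes averaged 897 ± 211, 99.3 ± 28.8, 41.4 ± 7.62, 16.7 ± 6.44 and 17.5 ± 6.11 CPM per kilobase (SD, n = 5). Dusp6 and Dusp7 overlapped in DR (60.9 to 108 and 43.5 to 78.3 CPM per kilobase) but not in AL (76.2 to 149 and 33.9 to 51.8), while Dusp5 and Dusp8 overlapped in both. Below them in DR came Dusp16 at 8.09 ± 0.362, Dusp10 at 4.81 ± 1.73 and Dusp4 at 3.53 ± 1.20 CPM per kilobase. Dusp2 at 0.985 ± 0.603 and Dusp9 at 0.652 ± 0.386 CPM per kilobase closed the order in DR and overlapped each other. In AL Dusp10, at 7.08 ± 5.17 CPM per kilobase, overlapped Dusp16 at 5.67 ± 0.906 (3.99 to 16.2 and 4.51 to 6.76), and the value of 16.2 was AL replicate 4 alone. Dusp4 stood at 2.27 ± 0.862, Dusp2 at 1.21 ± 0.755 and Dusp9 at 1.18 ± 0.255 CPM per kilobase in AL, Dusp2 overlapping both of the others.

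The related dual-specificity phosphatases outside the family, are mostly small enzymes without the kinase-binding domain. Of 16 listed, 12 were tested; 1 rose, 3 fell and 8 did not pass, so that 33.3% were called, against 40.7% of all genes, with a median log2 fold change of -0.07. Dusp26, an atypical phosphatase, rose: it had 4.68, 3.68, 3.98 and 3.68 CPM in DR and 0.397, 0.272, 0.335, 0.206 and 0.527 CPM in AL. The groups were far apart, with 106 to 130 reads per library in DR against 6 to 14 in AL (edgeR log2 fold change 3.53, SE 0.25, adjusted p = 6.8e-06). Dusp19 fell by 0.77 on the log2 scale (SE 0.16, adjusted p = 0.0031), with 5.83 ± 1.26 CPM in DR and 9.97 ± 0.756 CPM in AL (SD, n = 4 and 5). Dusp23 (-1.08, edgeR adjusted p = 0.017) and Dusp3 (-0.61, adjusted p = 0.021), small phosphatases of broad distribution, also fell, but neither passed without DR replicate 3 (adjusted p 0.055 and 0.069) or without DR replicate 4 (0.057 and 0.060). Dusp3 also did not pass without the 3 libraries richest in endothelial markers (adjusted p = 0.0501).

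Of 9 listed phosphatases of other classes that act on MAP kinases or their activators, 6 were tested. Of these 3 rose and 0 fell, so that 50% were called, against 40.7% of all genes. The 3 were the metal-dependent phosphatases Ppm1d (edgeR log2 fold change 0.92, SE 0.10, adjusted p = 7.4e-05), Ppm1b (0.49, adjusted p = 0.0011) and Ppm1a (0.50, adjusted p = 0.0041). Ppm1d, a p53 target known to inactivate p38, had 59.1 ± 5.96 CPM in DR and 31.1 ± 3.04 CPM in AL (SD, n = 4 and 5). Ppp2ca, which encodes a catalytic subunit of protein phosphatase 2A, did not pass and had a log2 fold change of 0.04. That value was negative under upper-quartile scaling and library size only. A further catalytic subunit gene, Ppp2cb, did not pass either (0.30, 95% interval 0.03 to 0.56, edgeR adjusted p = 0.069). The tyrosine phosphatases Ptpn7, Ptprr and Ptpn5 had too few reads to be tested.

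The kinase cascades that these enzymes act on held genes that rose and genes that fell. Of all genes tested 19.0% were higher and 21.7% lower, 40.7% in all, and the ERK, JNK and p38 shares lay near that. Of 19 tested genes of the ERK cascade 5 rose and 2 fell, 36.8% in all, with a median log2 fold change of 0.17. The exchange factors Sos2 (0.80) and Sos1 (0.39) and the kinase Braf (0.58) rose, and the ERK-activating kinase Map2k2 fell by 0.47 on the log2 scale (edgeR adjusted p 0.0011 to 0.0051). Of 13 tested genes of the JNK cascade 4 rose and 1 fell, 38.5% in all. Mapk9, which encodes a JNK, rose by 0.61, Map3k9 by 1.02 and Map3k2 by 0.50, and the scaffold gene Mapk8ip1 fell by 1.21 on the log2 scale (edgeR adjusted p 1.6e-05 to 0.0029). Of 14 tested genes of the p38 cascade 3 rose and 3 fell, 42.9% in all. Map3k6 rose by 1.61, Map3k4 by 0.60 and Mapk14, the main p38 kinase, by 0.32, while the downstream kinase Mapkapk3 fell by 0.57 on the log2 scale (edgeR adjusted p 0.00021 to 0.016); the Mapk14 call was lost without DR replicate 4 (0.051). Of 7 tested kinases on a separate list 71.4% were called. Of these, 3 rose, including Map3k3 (0.69) and Map3k8 (0.95), and 2 fell, Mapk15 (-0.90) and Mapk7 (-0.59). The separate listing does not mean that these kinases act outside the branches above.

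Of 16 tested feedback inhibitors and targets of ERK, among them Egr1 and Fos, which also stand among the immediate early genes, 4 rose, 3 fell and 9 did not pass; 43.8% were called, near the 40.7% of all genes. Errfi1, an inhibitor of the epidermal growth factor receptor, had 456 ± 60.0 CPM in DR and 195 ± 76.6 CPM in AL (SD, n = 4 and 5), a log2 fold change of 1.23 with an SE of 0.24 (edgeR adjusted p = 0.0021). Spred2, which holds back Ras signalling, rose by 0.69 (adjusted p = 0.00016). Ccnd1, the cyclin that drives G1, fell by 1.68 on the log2 scale, and Phlda1 fell by 1.005 (edgeR adjusted p 1.6e-05 and 0.0049). Of the 20 immediate early genes 1 rose (Maff, 0.98) and 2 fell (Nr4a1, -0.75, and Nr4a2, -1.13), 15% in all, with a median log2 fold change of 0.16. All 3 calls were lost when certain single libraries were left out. Maff lost it without AL replicate 1 or 3 or DR replicate 1, 3 or 4 (adjusted p up to 0.073), and Nr4a2 without DR replicate 3 or 4 (up to 0.056). Nr4a1 kept it only without AL replicate 1 or 2 (adjusted p up to 0.089 otherwise). Of the 13 glucocorticoid response genes, which include Errfi1, 12 rose, 92.3%, with a median log2 fold change of 1.83; Per1 did not pass (0.49, edgeR adjusted p = 0.059). Per1 was called in 8 alternatives and not in 14. The 8 include DESeq2 (0.028), edgeR on library size only (0.049), and AL replicate 4 (0.024) or 5 (0.048) left out. That list was drawn up knowing that such genes were higher in DR and is no independent evidence of direction. The log2 fold changes of that list ran from 0.49 (Per1) to 4.74 (Fkbp5), beside 0.10 for Dusp1. The smallest p belonged to Pdk4 (4.49), Klf15 (3.12), Tsc22d3 (4.004) and Fkbp5. These 4 were picked by their p in these data, so that Dusp1 lay below them tests nothing.

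**Figure D4:**
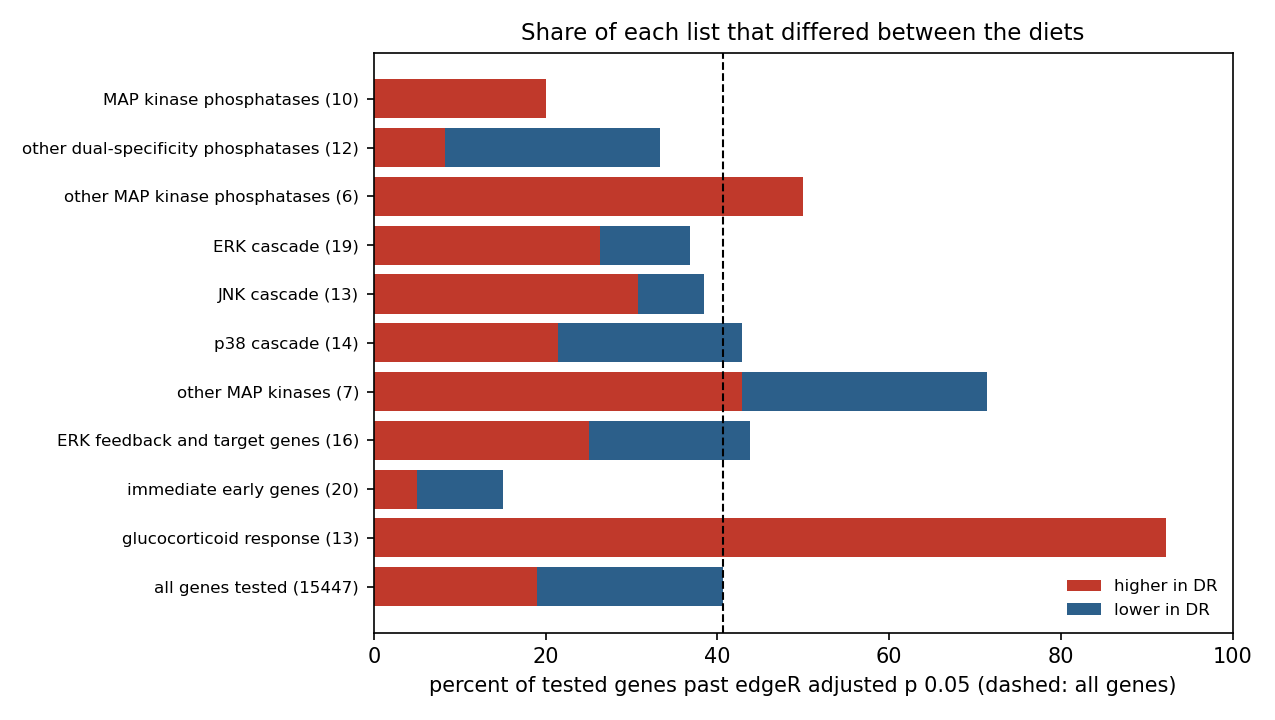
Percent of the tested genes of each list that were higher (red) or lower (blue) in DR at an edgeR adjusted p under 0.05, with the number tested in brackets and a dashed line at 40.7%, the share of all genes. The MAP kinase phosphatases (20%) and the immediate early genes (15%) lie left of the line and the glucocorticoid response genes (92.3%) far right of it.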

How the data were processed

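The authors deposited raw read counts per gene symbol, 1 table per library and not normalized. For that step the submitters' processing notes list Bowtie, TopHat2 2.1.0, HTSeq 0.11.2, FastQC 0.11.5 and the mm9 build. Which annotation and strand setting served was not given in the sources used here. In every library 6 lines name no gene and hold 25.9% to 30.7% of the reads; these were dropped, leaving 35006 symbols.

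The counts were filtered with filterByExpr by group and TMM-scaled. They were fitted with edgeR 4.0.16 (R 4.3.3) on diet alone, quasi-likelihood test, over all 15447 genes kept, with Benjamini-Hochberg adjustment at 0.05. Standard errors are those implied by the F statistic, and log2 CPM uses a prior count of 2. The test was tried first on simulated data. Between libraries of a group the chi-square was 24.6 to 110 per degree of freedom, which leaves no duplicate library. Whether the same replicate numbers pair libraries could not be decided, and the main fit took the libraries as unpaired. Alternatives used DESeq2 1.42.0, limma 3.58.1 and sva 3.50.0.

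All 10 members are named. Of other lists at most the 4 genes with the smallest p are named, and all called dual-specificity phosphatases. Ppp2ca, Per1, Krt15, Cd34, Itga6, Fbln1, Fos and the untested genes are given beside them, chosen after their values were seen. Members and lists were chosen with earlier results of these data known. The list entries Mapk8ip4 and Krt85 matched no symbol.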

Additional observations from a re-analysis of the deposited data

Results flagged for a closer look

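The closer look covered 49 tested genes, the 10 members and the other genes named with values, except Fbln1, Itga6 and Ppp2cb. Of their values, 8 stood apart from their group by a gap wider than Dixon's test allows at the 95% level. In all, 98 groups were examined, and chance gives about 1 in 20. Dusp2 had 3.78 CPM in DR replicate 1, where the next DR library had 1.47 CPM. Dusp2 had 5.05 CPM in AL replicate 4, where the next AL library had 2.04 CPM. Dusp10 had 49.3 CPM in AL replicate 4, where the next AL library had 18.9 CPM. Map3k8 had 57.6 CPM in AL replicate 4, next to 43.5 CPM. In DR replicate 2, Fos was low at 15300 CPM, next to 24100 CPM, and Cd34 was high at 630 CPM, next to 444 CPM. Klf15 was low in DR replicate 4, at 135 CPM next to 180 CPM, and Fkbp5 high in DR replicate 1, at 482 CPM next to 428 CPM.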

How the results depend on the processing

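Dusp16 and Dusp7 were called higher in each of 11 other scalings, filters, tests or covariate sets (adjusted p up to 0.0059 and 0.024). Leaving out single libraries gave 1 to 3 members higher (1 without DR replicate 1, 3 without AL replicate 4 or DR replicate 2) and 0 to 1 lower (Dusp8 without AL replicate 2, Dusp9 without DR replicate 1). It gave 8 to 16 other pathway genes lower, 8 without DR replicate 4 and 9 without DR replicate 3. Dusp9 made it 1 member lower with library size only, limma-voom (plain or quality-weighted), DESeq2's Wald test and 1 surrogate variable. Leaving out the 3 libraries richest in endothelial markers, chosen after seeing the data, gave 1 higher and 1 lower. With those libraries out, 29.4% of all genes passed, against 40.7% with all libraries. Over single libraries left out, the log2 fold change of Dusp2 ran from -0.82 to 0.16 and that of Dusp10 from -0.78 to 0.002, both positive without AL replicate 4; the members' median was then 0.14, and 0.04 without DR replicate 2. Ppp2ca came to -0.022 with upper-quartile scaling, -0.023 with library size only and -0.015 to 0.111 with single libraries left out. Krt15 lost its call under the replicate block (adjusted p = 0.075), Mapk14 with library size only (0.056) and Nr4a1 with quality-weighted limma-voom (0.061). Maff (0.135) and Nr4a1 (0.11) lost theirs without the 3 libraries. For these the cause was not tested. Without a filter 25.3% of genes passed. Library size only moved the median of all genes to -0.09.

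The deviations of same-numbered libraries correlated at 0.03 to 0.23, not all above 0.1. The AL library that correlated best was replicate 4 for DR replicate 1 and replicate 1 for DR replicate 2. For DR replicates 3 and 4 it was AL replicates 3 and 2. Values from so few pairs cannot decide whether the numbers pair the libraries. With the replicate number as a block (replicates 1 to 4), 2 members were higher and 0 lower, and 3061 genes higher and 3352 lower; without the block the same libraries gave 3044 and 3358. Counts were lowest for Dusp2 and Dusp9, at 31 and 23 reads in their lowest libraries; the part of depth in their results was not tested.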
